A study of Mus musculus with 7 samples.

Results

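The genes described here encode the proteins of the cytosolic ribosome. They were chosen by symbol: Rpl or Rps followed by a number and at most 1 letter, Rplp0 to Rplp2, or Rpsa, with pseudogene rows (symbols ending in -ps and a number) left out and with a required mean over the 4 RNA-seq libraries of 1 TPM or more (TPM, a transcript abundance scaled for length and to a fixed sum in each library). Of the 53715 genes listed, 83 symbols matched and 81 passed the minimum, 49 of the large subunit and 32 of the small subunit. The remaining pair, Rpl3l and Rpl10l, are paralogs of Rpl3 and Rpl10. Rpl3l had 0.092 TPM in DMSO replicate 1 and Rpl10l had 0.065 TPM in R406 replicate 2, and each was listed at 0 in the other libraries. The name rule also takes in Rps27l, Rps4l, Rpl39l, Rpl6l and Rpl32l, whose symbols mark them as relatives of a main ribosomal protein gene.

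All 4 RNA-seq libraries came from mouse embryonic fibroblasts of the OG2 strain, CBA-Tg(Pou5f1-EGFP)2Mnn/J, which carries a green fluorescent reporter driven from Pou5f1 sequence, taken at embryonic day 13.5. The cells were kept for 12 days in Stage 1 medium, a mixture of growth factor and small molecules for chemical reprogramming that holds bFGF, VPA, CHIR99021, 616452, Parnate, Forskolin, AM580, EPZ004777 and vitamin C. Of these cultures 2 received R406, known as an inhibitor of the kinase Syk, and 2 received DMSO, its solvent, and the design compares gene expression between these treatments. The labels give neither the dose of R406 for these cultures nor when it was added. A further pair of libraries gave CUT&Tag peak lists for FLAG-tagged Nfatc1, a calcium-regulated transcription factor, from the same kind of fibroblasts carrying lentiviral rtTA together with TetO-Flag-Nfatc1 and kept in Stage 1 medium with Dox and either R406 or DMSO for 4 days.

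A cytosolic ribosome holds 1 copy of nearly every ribosomal protein, bound to ribosomal RNA in a small subunit that reads the messenger RNA and a large subunit that joins amino acids. In growing cells their messenger RNAs are among the most abundant. Most belong to the 5′ terminal oligopyrimidine (TOP) class: transcription starts at a C within a stretch of C and T, and the kinase mTOR controls translation of these messages through that stretch.

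The starts of a few members are set beside that description, with and without such a stretch, and were chosen because the RNA results below turn on these genes. Each line holds 40 bases of the RefSeq GRCm38.p6 promoter table on the gene's strand, 5′ to 3′, with 20 bases before the annotated start and 20 from it. Capitals mark unbroken runs of at least 5 C or T.
Rps27, chr3:90213629-90213668, minus strand: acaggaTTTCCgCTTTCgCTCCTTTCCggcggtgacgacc
Rpl38, chr11:114668560-114668599, plus strand: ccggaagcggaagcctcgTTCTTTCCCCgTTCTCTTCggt
Rpl39, chrX:37085203-37085242, minus strand: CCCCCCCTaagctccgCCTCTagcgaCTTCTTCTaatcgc
Rpl11, chr4:136053374-136053413, minus strand: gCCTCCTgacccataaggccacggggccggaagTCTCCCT
Rps7, chr12:28635934-28635973, minus strand: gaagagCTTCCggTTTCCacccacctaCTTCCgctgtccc
Rplp0, chr5:115559447-115559486, plus strand: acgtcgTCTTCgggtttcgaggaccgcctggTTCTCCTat
Rpl41, chr10:128549149-128549188, minus strand: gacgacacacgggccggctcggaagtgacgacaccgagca

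In Rps27, Rpl38 and Rpl39 the annotated start lay inside such a run, of 9, 10 and 5 bases. In Rps7 the start was a C in a run of only 3 bases. In Rpl11 and Rplp0 a run lay some bases past the start, and the Rpl41 window held none of this length. The table held 70 windows for 59 of the 81 members. The start lay in a run of at least 5 in 21 of the 70 windows (30%), against 10.1% of all 32851 windows in the table, and the base at the start was C in 21 (30%), against 16.3%. A run of at least 8 within these 40 bases was found in 31 windows (44.3%), against 16.0% of all windows. The words CCGGAA, AAGATGGC and GGAAA were searched on both strands of the longer window, 250 bases before to 50 after the start. CCGGAA, the core of ETS factor sites, was present in 34 member windows (48.6%) and in 14.9% of all windows. AAGATGGC, the core of YY1 sites, was present in 7 (10%) and in 2.75% of all windows, and GGAAA, the core of NFAT sites, in 57 (81.4%) and in 61.3%. CCGGAA and GGAAA can share the letters GGAA, and a match is a description of the letters and not a bound site.

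Ribosomal protein genes held a larger share of TPM in each R406 library than in any DMSO library. The 81 members made up 18.9% and 21.9% of TPM in R406 replicates 1 and 2, against 13.7% and 15.2% in DMSO replicates 1 and 2. The mean was 20.4 ± 2.07% in R406 and 14.5 ± 1.01% in DMSO (SD, n = 2 each), a difference of 5.94 percentage points and a ratio of 1.41. The difference was 5.19 points between the libraries numbered 1 and 6.69 points between those numbered 2. An exact two-sided permutation test of 2 against 2 libraries cannot give less than p = 0.333, the value obtained here. TPM is a share with a fixed sum, so a higher share of these genes is also a lower share of all others, and in bulk RNA a change in which cells were present cannot be told apart from a change of RNA per cell.

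**Figure D1:**
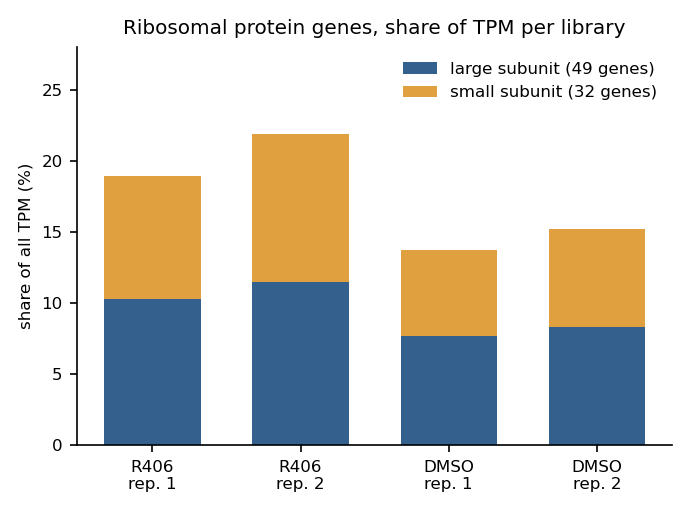
Stacked bars give the large and small subunit genes as a percentage of all TPM in each of the 4 libraries, R406 left and DMSO right. The stack reaches 18.9% and 21.9% in R406 and 13.7% and 15.2% in DMSO, and both subunits are higher in each R406 library.

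Other features of the libraries moved with the treatment or the replicate number. Mitochondrially encoded genes held 6.72% and 10.3% of TPM in R406 and 10.5% and 14.2% in DMSO. With those genes left out of the sum, the members' share was 20.3% and 24.4% in R406, against 15.3% and 17.7% in DMSO. The 8 fibroblast markers, all detected in every library, summed to 2939 to 4186 TPM in R406 and 2494 to 2942 TPM in DMSO. On the log2 scale, however, 5 of the 8 had a lower mean in R406, with Pdgfrb nearly level (log2 difference -0.003). Col3a1 rose and Fn1 fell (limma), and Thy1 had 837 and 749 TPM in R406, against 1145 and 1065 TPM in DMSO. The 11 macrophage markers summed to 21.6 and 22.8 TPM in R406, with Ptprc listed at 0 in both, Adgre1 at 0 in replicate 1 and Tyrobp at 0 in replicate 2, against 284 and 240 TPM in DMSO. Without Cd14, which had 14.2 and 15.4 TPM in R406 and 14.8 and 9.04 TPM in DMSO, the other 10 summed to 7.35 and 7.44 TPM in R406, against 269.6 and 230.5 TPM in DMSO. The 6 epithelial markers summed to 715 and 410 TPM in R406 and to 77.8 and 99.9 TPM in DMSO. The 6 erythroid markers summed to 22.9 and 12.9 TPM in R406 and to 1.30 and 2.95 TPM in DMSO, with the beta globin genes Hbb-bs and Hbb-bt listed at 0 in all 4 libraries. The part of any of these in the members' share was not tested.

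Both subunits took part in the higher share. Large subunit genes held 10.3% and 11.5% of TPM in R406, against 7.66% and 8.31% in DMSO, a ratio of means of 1.36. Small subunit genes held 8.66% and 10.4% in R406, against 6.07% and 6.86% in DMSO, a ratio of 1.47. The balance therefore leaned slightly to the small subunit in R406: large subunit genes were 54.2% and 52.6% of the members' TPM in R406 and 55.8% and 54.8% in DMSO, a difference of -1.89 points (exact two-sided permutation test, p = 0.333, the smallest possible). From replicate 1 to replicate 2 this part also shifted, by -1.68 points in R406 and -1.02 points in DMSO. Rps27 and Rps14 supplied 0.770 and 0.450 of the 3.05 points by which the small subunit share was higher. Rps27 alone held 0.827% and 1.97% of TPM in R406 replicates 1 and 2, against 0.379% and 0.881% in DMSO replicates 1 and 2. The balance without Rps27 and Rps14 was not computed. The lean therefore describes summed TPM and is not shown for the other small subunit genes. Pseudogene rows named after ribosomal protein genes held 2.22% and 2.61% of TPM in R406, against 1.74% and 1.98% in DMSO, so they also stood higher in R406.

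With genes ranked by the difference itself, a few abundant ones supplied much of the 5.94 points. Rps27, which encodes a zinc-binding protein of the small subunit, supplied 0.770 points, and Rps14, a small subunit protein of the platform, supplied 0.450. Rplp1 of the acidic stalk added 0.281, Rpl41 0.269 and Rps21 0.249, and these 5 genes came to 34.0% of the difference. With Rpl13a, Rpl39 and Rpl38 the first 8 genes came to 45.1%. For scale, the 5 highest members of each library held 20.1% and 26.3% of the members' TPM in R406 and 17.5% and 20.9% in DMSO. Of the 8 genes, Rps27, Rpl41, Rps21, Rpl39 and Rpl38 were also at least 1.5 times higher in replicate 2 than in replicate 1 in both treatments. The number of members above 1000 TPM was similar, at 62 and 60 in R406 and 60 and 59 in DMSO. The middle of the distribution was also higher: the median member had 2049 and 2118 TPM in R406, against 1558 and 1620 TPM in DMSO. Among the 100 genes of highest TPM, members held 51 and 49 places in R406 and 47 and 44 places in DMSO.

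Gene by gene, most members were higher in R406, and 1 passed limma's adjusted threshold. With limma on log2(TPM + 1) and Benjamini-Hochberg adjustment over 13929 genes, 1 member rose, Rps14, and 0 fell, where 4.26% of all genes tested rose and 4.05% fell. At an unadjusted limma p under 0.05, 12 members were higher and 1 lower, against 12.3% and 14.5% of all genes. Both R406 libraries exceeded both DMSO libraries in 44 members (54.3%), where 25.9% of all genes tested did so. Of those 44, 24 of 49 belong to the large and 20 of 32 to the small subunit. The reverse held for 1 member, Rpl21, against 30.2% of all genes. After quantile normalization 22 of 81 members exceeded DMSO in both R406 libraries, near the 25.9% of all genes in the main setting. The share of all genes after that normalization was not counted.

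The members' median log2 difference, R406 minus DMSO, was 0.32, against -0.02 over all genes tested. It was 0.28 for the large subunit and 0.35 for the small subunit, and single members ran between -0.81 and 1.14. The mean on the log2 scale was higher in R406 in 74 of 81 members, 43 of 49 large and 31 of 32 small subunit genes. The exceptions were Rps4l, Rpl10, Rpl17, Rpl21, Rpl26, Rpl29 and Rpl39l. For comparison, 87 genes outside the list with a mean of at least 1000 TPM had a median log2 difference of -0.07, and 16 of them stood higher in both R406 libraries. Quantile normalization lowered the members' median to 0.14 and the count of members with a higher mean to 66.

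**Figure D2:**
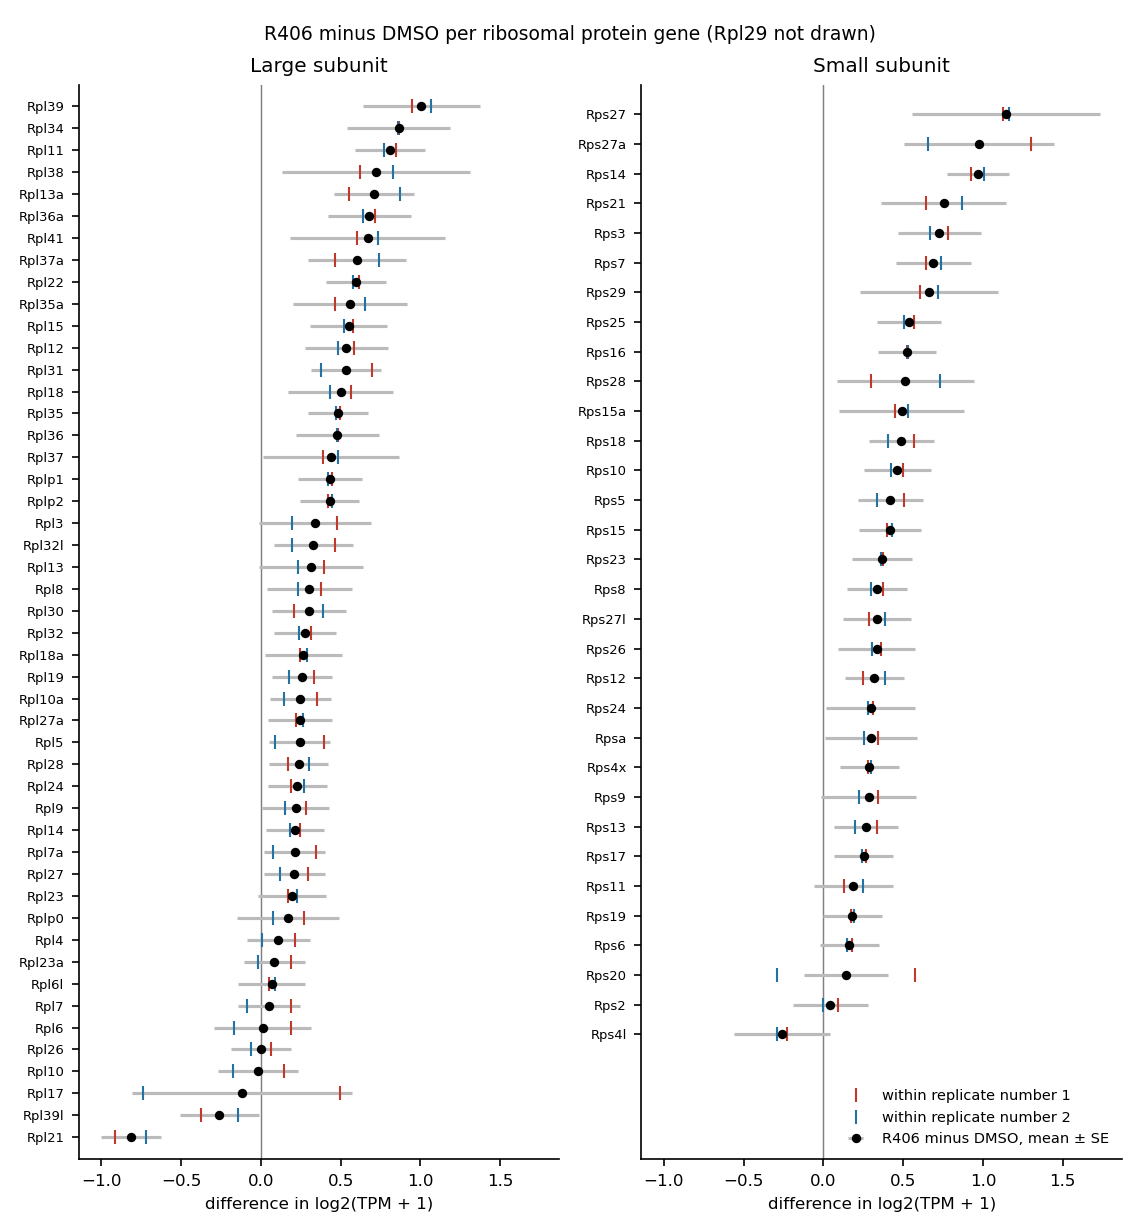
Each row is a member, with the R406 minus DMSO difference in log2(TPM + 1) as a black point, its SE as a grey bar, and the differences within replicate numbers 1 and 2 as red and blue ticks, large subunit left and small subunit right. Most points lie right of 0, 31 of 32 in the small subunit, and the 2 ticks of a gene lie within its SE bar in every drawn row except Rps20. Rpl29, whose SE of 1.57 exceeds the axis, is left out.

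Rps14 (ENSMUSG00000024608) was the member called. It had 9047 and 9351 TPM in R406, against 4759 and 4646 TPM in DMSO, so the groups were far apart and the replicates close. Its means were 9199 ± 215 TPM in R406 and 4702 ± 79.9 TPM in DMSO (SD, n = 2 each), a ratio of 1.96 and a log2 difference of 0.97 (SE 0.19, limma adjusted p = 0.0497). That call lies at the threshold: without any 1 of the 4 libraries, R406 replicate 1 or 2 or DMSO replicate 1 or 2, the limma adjusted p was 0.183 to 0.337, while the log2 difference stayed between 0.94 and 0.99.

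Rps27 (ENSMUSG00000090733) was the most abundant member and the 9th of all genes tested by mean TPM. Its values were 8266 and 19717 TPM in R406, against 3786 and 8807 TPM in DMSO. The treatments overlapped, since DMSO replicate 2 lay above R406 replicate 1, although within each replicate number R406 was more than double DMSO in TPM. The log2 difference of 1.14 had an SE of 0.59 and did not pass (limma adjusted p = 0.295). Rpl39, one of the smallest ribosomal proteins, located at the peptide exit tunnel, had 3324 and 5626 TPM in R406 and 1726 and 2686 TPM in DMSO (log2 difference 1.01, SE 0.37, limma adjusted p = 0.166). Here the treatments did not overlap, and Rpl39 and Rps27 were the members with a ratio of means of at least 2.

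Rps27a encodes a small subunit protein made as a fusion with ubiquitin. Rps27a had 2478 and 3699 TPM in R406, against 1004 and 2354 TPM in DMSO (log2 difference 0.98, SE 0.47, limma adjusted p = 0.267), with DMSO replicate 1 as the lowest library.

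Several proteins with roles outside the ribosome are among the members. Rpl11 and Rpl5 form with 5S ribosomal RNA a particle that can bind Mdm2, the ubiquitin ligase of p53. Rpl11 had 3476 and 2816 TPM in R406, against 1934 and 1651 TPM in DMSO, with no overlap (log2 difference 0.81, SE 0.22, limma adjusted p = 0.0950). Rpl5 had 942 and 814 TPM in R406 and 716 and 764 TPM in DMSO, a smaller log2 difference of 0.24 that did not pass either. Rps3, at the messenger RNA entry channel and also known from DNA repair, had 3059 and 2220 TPM in R406, against 1777 and 1395 TPM in DMSO (log2 difference 0.73). Rps7 had 3655 and 3020 TPM in R406, against 2343 and 1812 TPM in DMSO (log2 difference 0.69), again without overlap. Rps6, the substrate of S6 kinase downstream of mTOR, had 2351 and 2309 TPM in R406 and 2080 and 2086 TPM in DMSO, a log2 difference of 0.16 with close replicates that turned to -0.13 after quantile normalization. Rpsa, also known as a laminin receptor, had 2382 and 1636 TPM in R406 and 1882 and 1371 TPM in DMSO, and its treatments overlapped.

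The 3 stalk proteins were each higher in R406 within both replicate numbers, and none passed. Rplp1 had 10505 and 11209 TPM in R406, against 7724 and 8368 TPM in DMSO (log2 difference 0.43, limma adjusted p = 0.252). Rplp2, its partner, had 2187 and 2292 TPM in R406, against 1634 and 1684 TPM in DMSO, with the same log2 difference of 0.43. Rplp0, the base on which both sit, had 4934 and 3106 TPM in R406 and 4100 and 2947 TPM in DMSO, and replicate 1 was higher than replicate 2 in both treatments. Its log2 difference was 0.17 (SE 0.32, limma adjusted p = 0.788).

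At the lower end, 7 members had a log2 difference between -0.1 and 0.1: Rps2, Rpl23a, Rpl7, Rpl6, Rpl10, Rpl26 and Rpl6l. Rpl26 had 99.6 and 106 TPM in R406 and 95.3 and 111 TPM in DMSO. Rpl10 had 945 and 657 TPM in R406 and 857 and 742 TPM in DMSO, so the R406 libraries enclosed both DMSO libraries. Its log2 difference of -0.02 turned to 0.027 with median centring. Rps4l had 125 and 83.4 TPM in R406 and 147 and 102 TPM in DMSO, whereas Rps4x, the X-linked gene of that family, had 1777 and 1690 TPM in R406 and 1465 and 1374 TPM in DMSO. Rpl39l, a paralog of Rpl39 known from testis, had 32.2 and 45.9 TPM in R406 and 42.2 and 50.8 TPM in DMSO. Rps27l, a paralog of Rps27 known as a p53 target, had 1465 and 1792 TPM in R406 and 1204 and 1371 TPM in DMSO. None of these differences passed.

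**Figure D3:**
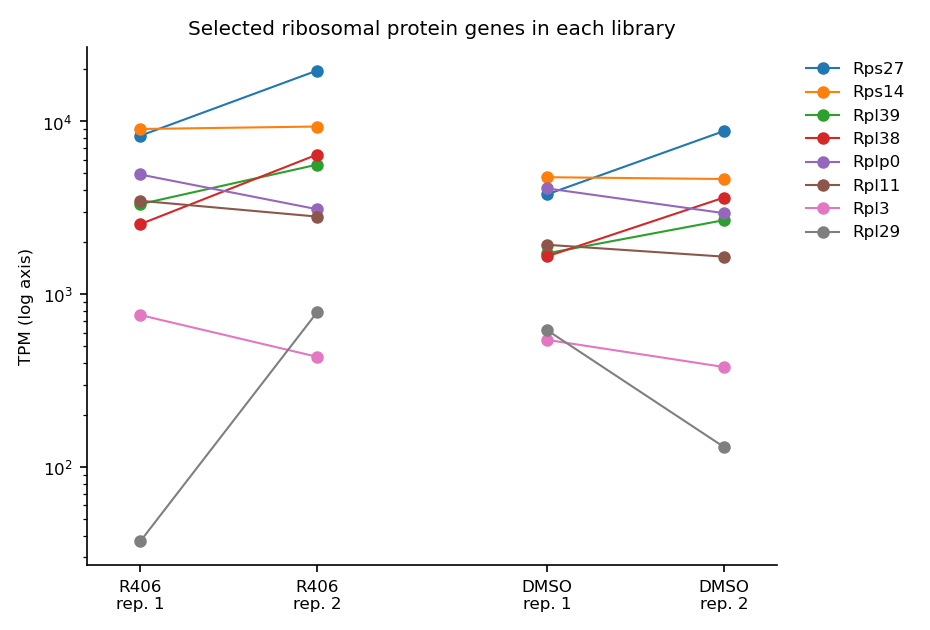
TPM of 8 members on a log axis, with R406 replicates 1 and 2 left and DMSO replicates 1 and 2 right, and a line joining the libraries of a treatment. Rps27, Rpl38 and Rpl39 slope up with the replicate number in both treatments, Rplp0, Rpl11 and Rpl3 slope down in both, Rps14 is level, and Rpl29 crosses with opposite slopes.

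The replicate number went with differences of similar size. The median absolute log2 difference over members was 0.33 between treatments and 0.27 between replicate numbers 2 and 1. The treatment difference was the larger in 47 of 81 members (58.0%, against 59.5% of all genes tested) and the replicate-number difference in 34. Replicate 2 exceeded replicate 1 in both treatments in 35 members, against 21.2% of all genes, and replicate 1 exceeded replicate 2 in both in another 35, against 52.1% of all genes. The remaining 11 went opposite ways. The labels do not tie equal numbers to a common culture or preparation day, so replicate numbers were not part of the fit.

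Both directions had large members. Rpl38 had 2544 and 6433 TPM in R406 and 1657 and 3629 TPM in DMSO, replicate 2 being 2.53 times replicate 1 in R406 and 2.19 times in DMSO. Its treatment difference was 0.72 on the log2 scale (SE 0.59, limma adjusted p = 0.500). Rpl41, which encodes the shortest ribosomal protein, had 4595 and 9530 TPM in R406 and 3020 and 5730 TPM in DMSO (log2 difference 0.67, SE 0.48, limma adjusted p = 0.446). For both genes DMSO replicate 2 lay above R406 replicate 1. In all, 9 members were at least 1.5 times higher in replicate 2 than in replicate 1 in both treatments: Rps27, Rpl41, Rps21, Rps29, Rpl38, Rpl39, Rps28, Rpl37 and Rps15a. In the other direction, Rpl3, of the peptidyl transferase centre, had 758 and 435 TPM in R406 and 544 and 379 TPM in DMSO. Rpl17 was the single member at least 1.5 times higher in replicate 1 in both treatments.

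Within each replicate number the treatment difference was alike for most members. The median log2 difference was 0.37 between the libraries numbered 1 and 0.30 between those numbered 2. In 60 of 81 members the 2 values lay within 0.2 of each other, a count that was not made over all genes. R406 was higher within both numbers in 69 members (85.2%, against 38.9% of all genes tested), lower within both in 3, and opposite in 9. The commonest orders of the 4 libraries were, from low to high, both DMSO libraries and then both R406 libraries with replicate 2 above replicate 1 in each (19 members), and the same with replicate 1 above replicate 2 (18 members). In 13 members, including Rps27, Rpl38 and Rpl41, the order ran DMSO replicate 1, R406 replicate 1, DMSO replicate 2, R406 replicate 2. In 12 others, including Rplp0 and Rpl3, it ran DMSO replicate 2, R406 replicate 2, DMSO replicate 1, R406 replicate 1.

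Members higher in replicate 2 also had the larger treatment differences. The 35 members with replicate 2 above replicate 1 in both treatments had a median log2 treatment difference of 0.49, and the 35 with the opposite order 0.29. The overlap was wide, since Rpl11 and Rps3, both higher in replicate 1, had differences of 0.81 and 0.73. These medians are a description without a test.

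**Figure D4:**
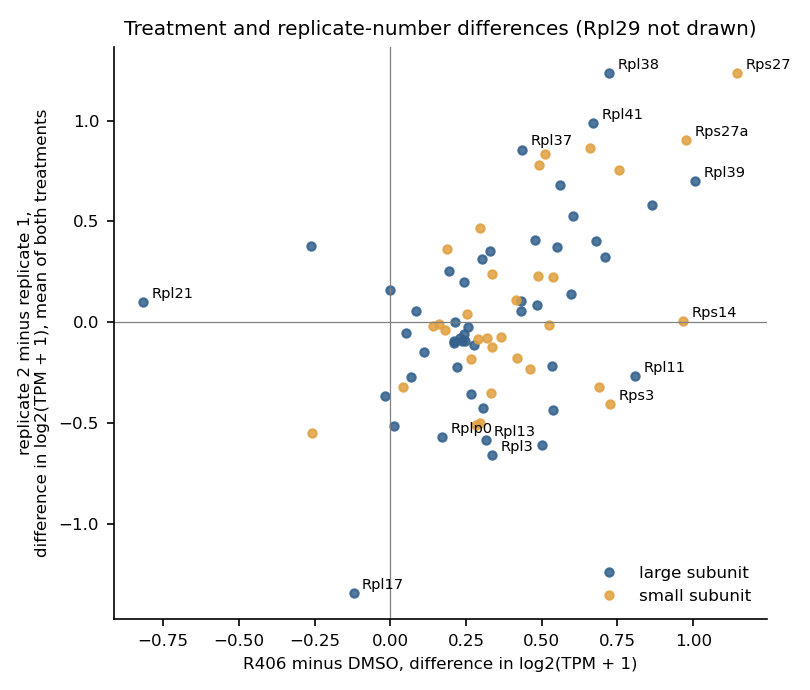
Each point is a member, large subunit blue and small subunit orange, with the R406 minus DMSO difference in log2(TPM + 1) on the x axis and the replicate 2 minus replicate 1 difference, averaged over both treatments, on the y axis. Rps27, Rpl38 and Rpl41 lie high on the y axis, Rps14 lies near 0 on it at an x value of 0.97, and Rpl11 and Rps3 lie below 0. Rpl29 is left out.

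Rpl29 had no stable value. It was listed at 37.1 and 787 TPM in R406 and at 620 and 131 TPM in DMSO, so R406 replicate 2 and DMSO replicate 1 were high and the other libraries low. The log2 difference was -0.72 with an SE of 1.57. Without R406 replicate 2 the log2 difference was -2.91 and limma called it lower (adjusted p = 0.0490), a call that rests on which library is dropped. Its pseudogene rows held less than 1 TPM in each library. Rps20 varied less and crossed the other way, with R406 replicate 1 and DMSO replicate 2 high, at 745 and 544 TPM in R406 and 500 and 667 TPM in DMSO.

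Not one of the 81 members was listed at 0 in any library. The 8 members with a mean under 200 TPM were Rps18, Rps4l, Rpl26, Rpl6l, Rpl12, Rpl39l, Rpl21 and Rpl32l. The table holds 297 pseudogene rows named after ribosomal protein genes, of which 121 had a mean of at least 1 TPM and 0 of those were at 0 in a library. Such rows exist for 60 members, and in 6 of them, Rpl21, Rpl17, Rps18, Rpl15, Rpl3 and Rps12, they summed to more than the gene's own row. The labels do not say how reads that match several copies were assigned, so the division between a gene and its copies is uncertain.

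Rpl21 was the clearest case. The gene row had 2.04 and 2.48 TPM in R406 and 4.72 and 4.73 TPM in DMSO (log2 difference -0.81, SE 0.19, limma adjusted p = 0.0691), while its pseudogene rows summed to 624 and 770 TPM in R406 and to 610 and 764 TPM in DMSO. Gene and pseudogene rows together differed by 0.02 on the log2 scale. Rpl17 had 1135 and 291 TPM in R406 and 805 and 486 TPM in DMSO in its own row. With its pseudogene rows the sum was 4096 and 4433 TPM in R406, against 3143 and 3435 TPM in DMSO, a log2 difference of 0.37, where the gene row alone gave -0.12. Summing thus brought the replicates of Rpl17 together and set the R406 libraries above both DMSO libraries. For Rpl15 the sum was 1271 and 1655 TPM in R406, against 730 and 1017 TPM in DMSO, with no overlap, as in the gene row.

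**Figure D5:**
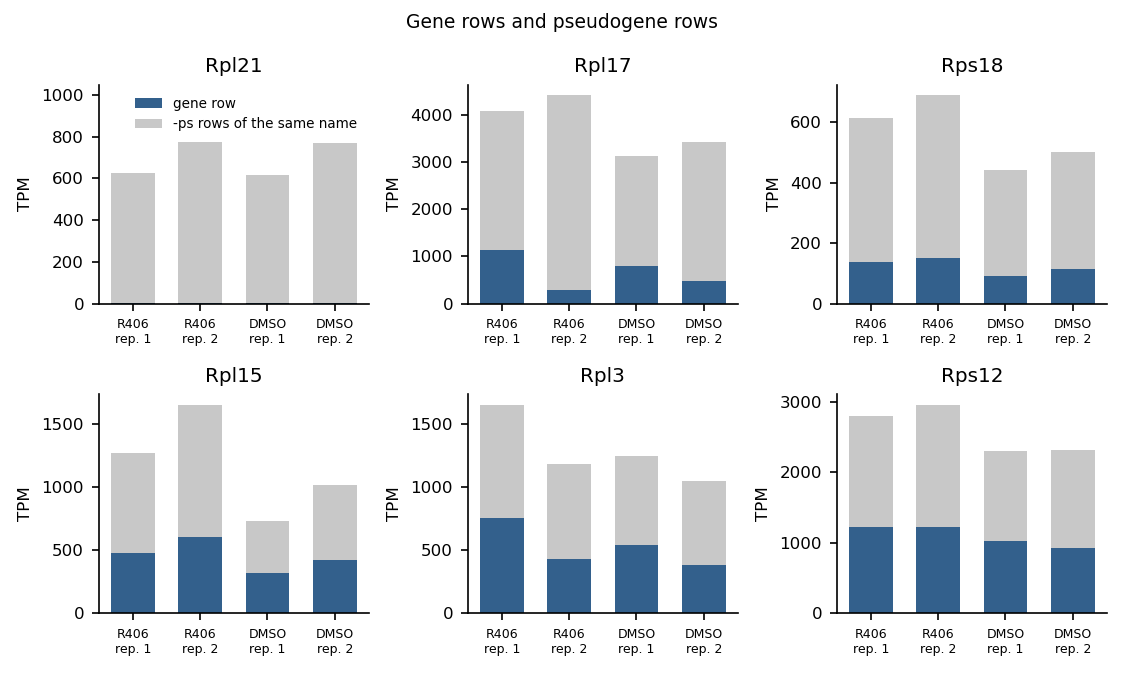
Stacked bars of TPM per library for the 6 members whose pseudogene rows (grey) exceed the gene row (blue), R406 left and DMSO right in each panel. Almost all of the Rpl21 bar is grey, and the stacked bars of Rpl17 are higher in R406 although its blue part is lowest in R406 replicate 2.

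Around the members, other ribosome components and mitochondrial ribosomal proteins had higher medians in R406, with 1 call among them. Of 7 ribosome components or paralogs outside the name rule, 1 rose and 0 fell, all 7 had a higher mean in R406, and the median log2 difference was 0.39. The gene that rose was Rpl22l1, a paralog of Rpl22, with 1555 and 1592 TPM in R406, against 603 and 584 TPM in DMSO (log2 difference 1.41, limma adjusted p = 0.0211). Rpl22 itself had 668 and 726 TPM in R406, against 435 and 486 TPM in DMSO (log2 difference 0.60, limma adjusted p = 0.123). Without DMSO replicate 1 or 2 the limma adjusted p of Rpl22l1 was 0.121 or 0.112. Rps3a1 falls outside both the name rule and these 7 genes. It had 2552 and 2281 TPM in R406, against 2045 and 1926 TPM in DMSO (log2 difference 0.28), and did not pass. Of 82 mitochondrial ribosomal protein genes tested, of 83 listed, 0 rose and 0 fell by limma with adjustment. At an unadjusted limma p under 0.05, 12 of them were higher and 1 lower, against 12.3% and 14.5% of all genes tested. Their median log2 difference was 0.22, and 62 had a higher mean on the log2 scale in R406. In both R406 libraries 39 stood higher, where 25.9% of all genes did.

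The machinery that makes and controls ribosomes was also counted. Of 29 assembly factor genes tested, of 30 listed, 1 rose and 0 fell, with a median log2 difference of 0.03. The 1 that rose was Gar1, of the particles that direct pseudouridine formation in ribosomal RNA, with 48.6 and 56.5 TPM in R406, against 22.0 and 27.0 TPM in DMSO (log2 difference 1.08, limma adjusted p = 0.0460). Without any 1 of the 4 libraries in turn, the limma adjusted p of Gar1 no longer passed. No gene passed limma's adjusted threshold among 12 of ribosomal RNA transcription (median log2 difference 0.24), 10 snoRNA host genes (0.41) and 16 regulators of growth such as Mtor and Myc (-0.10). None passed either among 16 translation factors and other non-ribosomal genes of the TOP class (-0.07) and 17 other initiation factors (-0.13). At an unadjusted limma p under 0.05, 2 genes of ribosomal RNA transcription, 4 snoRNA hosts, 1 growth regulator and 1 gene of the TOP class were higher, and 0, 0, 1 and 2 were lower, while 0 of the other initiation factors were higher and 3 lower. Over all genes tested the shares at that p were 12.3% higher and 14.5% lower. The members' median was 0.32, and the difference between lists was not tested.

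In the CUT&Tag lists, more members had an Nfatc1 peak near the annotated start in R406 than in DMSO, and the R406 list was longer, with 36885 peaks against 21246. Each list comes from 1 library, so this compares those libraries only. An annotated start was matched for 59 members, under 80% of them, so the shares describe those 59 and not the list. A peak lay within 1000 bases of the start in 47 of 59 in R406 (79.7%, exact 95% binomial interval 67.2 to 89.0, counting error only), where 57.7% of all genes with a start had one. In DMSO it was 32 of 59 (54.2%, 40.8 to 67.3), against 39.7% of all genes. These intervals treat genes as independent draws and are no test against all genes. The median TPM was 1806 for members and 11.0 for all genes tested, and genes of like expression were not compared. For all 81 members, using either end of the gene as the table gives it, 61 had a peak in R406 (75.3%, against 52% of all genes) and 42 in DMSO (51.9%, against 35.2%). By this measure 38 members had a peak in both lists, 23 in R406 alone, 4 in DMSO alone and 16 in neither.

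Peaks were present at some and absent at others of the members that stood out in RNA. Rps27, with the largest log2 difference in RNA, had no peak at its start in either list. Rpl39 had none in R406 and 1 of 6.56-fold enrichment, the authors' value, in DMSO. Rpl41 had a peak of 32.9-fold in the R406 list and 24.0-fold in the DMSO list, Rpl11 had 17.7-fold and 5.10-fold, and Rpl38 had 17.7-fold and 5.83-fold. Rplp0, with a log2 difference of 0.17 in RNA, had a peak of 17.7-fold in R406 and none in DMSO. Rps14, the member called in RNA, had no matched start. Near a gene end it had a peak of 15.8-fold in R406 and 8.74-fold in DMSO. The enrichment is the peak caller's own within each list, and the lists were not scaled to each other.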

How the data were processed

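RNA-seq libraries (2 with R406, 2 with DMSO) were grouped and numbered by their titles. The authors deposited TPM per gene, and the single files equalled the series table in 4 of 4 libraries. HISAT2 2.1.0, StringTie 2.0, Bowtie2 2.2.5, MACS2 2.1.2 and mm10 are named per the submitters' processing notes, without their roles. Annotation and handling of multiply matching reads were not stated. Per the labels' protocols the RNA kit was NEBNext Ultra, which does not mark strand, so antisense or overlapping genes cannot be told apart. TPM keeps no depth, so the depth behind each value is unknown. The peak lists hold the authors' deposited fold enrichment (a ratio) and -log10 q-values per peak, and the blank CUT&Tag library was not used here.

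From these, log2(TPM + 1) of the 13929 genes whose mean reached 1 TPM was fitted with limma 3.58.1 in R 4.3.3 (trend in the prior variance, R406 minus DMSO, Benjamini-Hochberg, threshold 0.05), after the same steps were tested on simulated data. The pseudocount understates differences of low genes. Nothing states that the 2 libraries of a treatment came from separate animals or cultures, so p-values measure the spread between these libraries, which may be technical. Intervals of shares are Clopper-Pearson. Peaks were matched to starts or gene ends within 1000 bases, with gene positions from RefSeq GRCm38.p6, the build of mm10. Alternatives covered the pseudocount, low-value filter, scaling, trend, replicate block, each library left out, peak window and peak threshold. Genes named are members called, the 8 most abundant members, the 8 members of largest and the 8 of smallest log2 difference, a list of members with known roles, and, of the other lists, the genes called and up to 3 more, of which the text gives only some. Rps3, Rps7, Rps20, Rpl15, Rpl22, Rpl37, Rps28 and the other members given with counts were named after their values were seen. The alternatives for the counts of members without overlap or with a higher mean, and the match to either gene end, were added after seeing the data. The members and lists were chosen with earlier results of these data known. Not every gene of these lists is named in the text.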

Additional observations from a re-analysis of the deposited data

How the results depend on the processing

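The higher share of TPM in R406 kept its direction with mitochondrially encoded genes, or the 10 highest genes outside the members, left out of the sum. It also did so with pseudogene rows added. Leaving out 1 library gave differences of 4.47 to 7.40 points, and -2.73 to -1.06 points for the large subunit's part. Those signs could not turn, because the R406 and DMSO libraries did not overlap in either measure. Calls depended on the setting. The single member called higher became 0 with no filter on low values, with a minimum mean of 5 TPM, with median centring, with quantile normalization and without each library in turn (0 to 0), and became 49 with the replicate block. Members called lower became 1 with the block, and 0 to 1 without a library. The limma adjusted p of Rps14 ran between 0.0036 with the block and 0.337 without a library. Members above DMSO in both R406 libraries numbered 22 after quantile normalization, and the share of all genes in that setting was not counted. The median log2 difference was 0.14 after quantile normalization, 0.26 without mitochondrially encoded genes and 0.42 after rescaling over the other genes. With peaks of -log10 q of at least 10, 71.2% of the 59 starts had a peak in R406, against 47.4% of all genes, and 35.6% in DMSO, against 23.6%. Members with a higher mean in R406 numbered 74 in the main fit, 66 after quantile normalization and 71 without mitochondrially encoded genes. They numbered 76 with median centring and 76 after rescaling over the other genes. Signs were followed only for members under the naming rule, and turned for Rpl10 (0.027 with median centring, 0.087 rescaled over the other genes). They also turned for Rpl26 (0.043 with median centring, 0.10 rescaled, and 0.055 after quantile normalization). The others were Rpl6 (-0.081 after quantile normalization, -0.051 without mitochondrially encoded genes) and Rps6 (-0.13 after quantile normalization). Without a library, log2 differences ran between -0.28 and 0.25 for Rpl10, -1.10 and 0.86 for Rpl17, -0.11 and 0.11 for Rpl26, -2.91 and 1.46 for Rpl29, -0.34 and 0.36 for Rpl6, -0.16 and 0.51 for Rplp0, and -0.55 and 0.031 for Rps4l. The cause of these shifts was not tested. With the replicate block, all genes called were 2128 higher and 2535 lower, against 593 and 564 without it, and the block added calls in every other list, such as 19 mitochondrial ribosomal proteins higher and 1 lower, 7 snoRNA hosts higher and 7 other initiation factors lower. With no filter both were 0. Replicate differences in R406 and DMSO correlated across genes with Pearson r = 0.556 for all genes and 0.214 for members (0.906 without Rpl29), genes not being independent replicates. With 2 pairs and no label, the numbers do not show that libraries were paired. Unknown depth limits the precision of low members such as Rpl21.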
